A study of Mus musculus with 12 samples.

Results

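The proteins of the mitochondrial ribosome were followed in whole ovaries of lethal yellow (LY) and black mice, which were 90 or 180 days old. The genes were taken by name: every array feature with exactly 1 gene name that starts with Mrpl or Mrps and a digit was collected, and a gene with several features was represented by the one with the highest mean log2 value over the 12 arrays. This gave 72 genes from 85 features, out of 18069 genes with a feature of their own and 36227 features on the array. Of the 72 genes, 46 encode proteins of the large subunit, 25 proteins of the small subunit, and Mrps36 carries the name although its product is known as a subunit of the alpha-ketoglutarate dehydrogenase complex. Mrpl9, Mrpl22, Mrpl32, Mrpl41, Mrpl52 and Mrps18c are not analysed here, nor are 3 features that name a mitochondrial ribosomal protein together with a second gene.

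RNA of 1 ovary from each of 12 female mice was hybridised to a CodeLink Whole Mouse Genome Bioarray of its own, with 3 mice in each of 4 groups. LY mice carry the dominant Ay allele of agouti over a (Ay/a), and black mice are their a/a littermates. Both come from 1 breeding colony, and the sample labels spell the strain C56BL/6J. The Ay deletion removes the Raly gene and leaves agouti under its promoter, which is active in nearly all tissues, so a genotype difference seen in the ovary need not arise in the ovary. All 12 mice, black ones included, received the GnRH antagonist Antide at 10 microg/g on days 1 and 4 and equine chorionic gonadotropin (eCG) at 1 IU per 5 g body weight, and the ovaries were collected on day 7, 36 hours after eCG. The comparison asks whether ovarian gene expression differs between the genotypes before and after LY mice become obese. The ovaries therefore represent suppressed and restimulated animals, not a natural cycle.

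The mitochondrial ribosome translates the few messages of mitochondrial DNA, all of which encode subunits of the respiratory chain and ATP synthase. Its proteins are encoded in the nucleus, made in the cytosol and imported. The small subunit reads the message and the large subunit joins the amino acids and feeds the chain into the inner membrane. Many of its proteins have a counterpart in bacterial ribosomes, and the others were added in mitochondrial evolution. Oocytes and steroid-producing cells are rich in mitochondria, and inherited defects of MRPS22, MRPS7 and MRPL50 have been linked in women to loss of ovarian function.

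No value of the 72 genes lay under the sensitivity limit of 0.2 relative intensity units, and 1 value was missing, that of Mrpl34 in 90-day black replicate 2. Of these genes 59 lay among the brightest 7840 of the tested features, those with a mean of at least 4.63 units. A unit is a signal divided by the median signal of its array. It gives the brightness of a feature and not an amount of RNA, so units do not rank genes by RNA level. Agouti, checked against the genotype labels, lay at 95.7 to 111 units in LY and at 0.169 to 0.368 units in black mice, and Raly was lower in every LY mouse of either age (log2 difference -0.81 at 180 days and -0.73 at 90 days). The tissue carried its defining markers, with 7 of 8 granulosa markers on the array summing to 172 to 391 units and 8 of 8 oocyte markers to 37.9 to 74.5 units. At 180 days the granulosa sum was 172 to 229 units in LY and 237 to 317 in black mice, and the oocyte sum 37.9 to 54.0 and 56.5 to 74.5 units, without overlap. The sums of 3 of 5 theca markers were 229 to 369 and 184 to 241 units, and the erythroid marker Alas2 was at 2.60 to 4.01 and 2.00 to 2.37 units, the latter without overlap. One by one, 6 of 7 granulosa and 7 of 8 oocyte markers were lower in LY at this age and 3 of 3 theca markers higher. At 90 days the granulosa sums were 267 to 391 units in LY and 270 to 362 in black mice and the oocyte sums 58.4 to 61.1 and 50.3 to 66.0. Here 6 of 7 granulosa and 7 of 8 oocyte markers were higher in LY. The 6 surface epithelium markers summed to 11.4 to 12.3 and 15.5 to 20.4 units, with 6 lower in LY. The sums of 3 of 4 luteal markers were 6.31 to 8.23 and 13.3 to 18.8 units, with 2 markers lower and 1 higher. Theca sums were 283 to 302 and 232 to 375 units, with 2 markers lower and 1 higher. A sum weighs its brightest features most. The sums of 3 oviduct markers were 2.69 to 3.10 units in LY and 3.92 to 5.93 units in black mice at 90 days, without overlap, and 1.71 to 1.86 and 1.66 to 4.31 units at 180 days, with Pax8 among them under the limit on all arrays. These shifts run beside every genotype difference given here, their part in it was not tested, and in whole ovaries fewer cells of a type and less RNA per cell cannot be told apart.

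Mitochondrial ribosomal protein genes are known for compact promoters rich in sites for nuclear respiratory factors, so the promoter sequences are shown first for 4 of the 5 genes with the lowest p for a genotype difference that depends on age and for 1 promoter shared by a pair of these genes. The remaining one of the 5 is Mrpl38. RefSeq (GRCm38.p6) gave a window of 250 bases before to 50 after the start for 63 of the 72 genes. Capitals mark the letters of 7 motifs searched on both strands, namely CCGGAAG for ETS factors such as GABP, GCGCATGC for NRF1, AAGATGGC for YY1, GGGCGG for SP1, CACGTG for the E-box, TATAAA, and CCAAT. The windows are those of Mrpl34 at chr8:71464676-71464975 (plus strand), Mrpl17 at chr7:105811038-105811337 (minus strand), Mrpl33 at chr5:31613701-31614000 (plus strand), Mrps12 at chr7:28741772-28742071 (minus strand) and Mrps11 at chr7:78782881-78783180 (plus strand).
Mrpl34: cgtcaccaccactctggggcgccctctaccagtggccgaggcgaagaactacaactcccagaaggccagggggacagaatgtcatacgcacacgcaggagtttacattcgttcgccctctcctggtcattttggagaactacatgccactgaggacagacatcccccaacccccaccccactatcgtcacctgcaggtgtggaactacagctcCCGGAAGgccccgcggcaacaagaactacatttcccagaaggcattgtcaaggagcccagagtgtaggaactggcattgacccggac
Mrpl17: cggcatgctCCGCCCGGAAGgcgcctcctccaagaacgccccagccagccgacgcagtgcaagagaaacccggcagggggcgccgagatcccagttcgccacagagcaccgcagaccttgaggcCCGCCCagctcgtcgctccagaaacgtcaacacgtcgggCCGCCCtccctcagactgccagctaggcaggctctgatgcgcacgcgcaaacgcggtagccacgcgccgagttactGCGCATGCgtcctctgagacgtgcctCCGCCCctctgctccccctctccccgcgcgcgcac
Mrpl33: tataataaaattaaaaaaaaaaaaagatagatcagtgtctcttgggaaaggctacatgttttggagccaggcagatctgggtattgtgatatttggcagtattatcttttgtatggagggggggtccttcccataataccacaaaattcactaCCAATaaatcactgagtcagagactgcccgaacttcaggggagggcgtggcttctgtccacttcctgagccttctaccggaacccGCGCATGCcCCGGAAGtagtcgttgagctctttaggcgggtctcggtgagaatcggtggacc
Mrps12: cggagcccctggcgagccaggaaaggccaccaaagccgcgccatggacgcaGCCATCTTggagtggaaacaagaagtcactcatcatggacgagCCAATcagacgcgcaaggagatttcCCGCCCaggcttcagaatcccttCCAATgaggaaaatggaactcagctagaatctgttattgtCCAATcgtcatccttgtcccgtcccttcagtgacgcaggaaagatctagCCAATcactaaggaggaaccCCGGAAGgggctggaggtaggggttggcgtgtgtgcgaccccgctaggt
Mrps11: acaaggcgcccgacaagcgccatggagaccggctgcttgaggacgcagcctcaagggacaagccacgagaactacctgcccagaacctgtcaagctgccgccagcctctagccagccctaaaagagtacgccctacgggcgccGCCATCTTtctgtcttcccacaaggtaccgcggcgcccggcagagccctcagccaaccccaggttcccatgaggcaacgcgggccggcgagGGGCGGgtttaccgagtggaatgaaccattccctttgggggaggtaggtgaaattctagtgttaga
The windows of Mrpl34, Mrpl17, Mrpl33 and Mrps12 all held the ETS letters, in Mrpl17 with the first letters shared with an SP1 match. Those of Mrpl17 and Mrpl33 also held the NRF1 letters, and those of Mrpl33 and Mrps12 CCAAT. The SP1 letters were found in the windows of Mrpl17, Mrps12 and Mrps11 and the YY1 letters in those of Mrps12 and Mrps11.

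Over the 63 genes, 23 had the ETS letters in a window (36.5%, against 9.93% of all 27025 genes with a window and 12.9% of the 17492 protein-coding ones). The YY1 letters were found for 11 genes (17.5%, against 3.19% of all and 3.57% of protein-coding genes) and the NRF1 letters for 5 (7.94%, against 3.05% and 3.94%), namely Mrpl10, Mrpl17, Mrpl33, Mrpl39 and Mrps18b. The other motifs were as common as in protein-coding genes or less so. SP1 letters were found for 50.8% against 49.2%, CCAAT for 39.7% against 42.3%, the E-box for 6.35% against 8.91% and TATAAA for 7.94% against 14.8%. A match is a run of letters and does not show that a factor binds. Another gene started within 1000 bases in the opposite direction for 23 of the 63 genes (36.5%, against 12.3% of all and 13.2% of protein-coding genes). Among these pairs, Mrpl46 and Mrps11 start 42 bases apart, Mrps12 lies 147 bases from Sars2, the mitochondrial seryl-tRNA synthetase gene, and Mrpl47 lies 308 bases from Ndufb5, which encodes a complex I subunit.

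In 180-day ovaries the mitochondrial ribosomal protein genes lay slightly higher in LY than in black mice, and no single gene passed the test. Differences were positive for 64 of the 72 genes (88.9%, against 55.9% of the 31359 tested features and 62.7% of the brightest ones) and negative for 8. The median difference was 0.19 on the log2 scale, against 0.03 over all tested features and 0.05 over the brightest ones. The differences ran from -0.14 to 0.41, so every one was well under 2-fold. After Benjamini-Hochberg adjustment in limma 0 of 72 genes were called, against 0.0446% of all features, and the lowest adjusted p was 0.157. At an unadjusted p under 0.05, 23 genes were higher (31.9%, against 7.05% of all features and 9.78% of the brightest) and 0 lower (against 4.91%). All 3 LY arrays lay above all 3 black arrays for 34 genes (47.2%, against 14.3% of all features) and below for 0 (against 8.37%). Non-overlap was not counted among the brightest features.

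The lowest p at 180 days belonged to Mrpl20, which counts among the early-binding proteins of the large subunit. It measured 60.6, 59.3 and 55.6 units in LY and 48.2, 44.8 and 39.7 units in black mice, a log2 difference of 0.41 ± 0.09 (SE, n = 3 mice per group, limma adjusted p = 0.157). The lowest LY value exceeded the highest black value. Mrpl33, counterpart of a small bacterial protein, measured 100.5, 96.6 and 91.0 units in LY and 79.2, 78.4 and 68.6 units in black mice (0.35 ± 0.09). Mrps24, the counterpart of bacterial S3 at the entry of the message, measured 60.5, 67.7 and 70.7 units in LY and 55.5, 52.4 and 47.9 units in black mice (0.35 ± 0.10). Neither of these pairs of groups overlapped either. Mrps27, a mitochondria-specific protein with RNA-binding repeats, measured 21.4, 19.7 and 22.2 units in LY and 17.6, 16.6 and 16.4 units in black mice (0.32 ± 0.09). Mrpl16, which lies close to the site of peptide bond formation, measured 19.0, 19.9 and 19.0 units in LY and 14.9, 16.6 and 14.6 units in black mice (0.33 ± 0.10). Mrps25, a mitochondria-specific protein of the small subunit, measured 25.02, 28.4 and 29.1 units in LY and 21.6, 22.8 and 21.7 units in black mice (0.32 ± 0.10). For all 6 genes the LY arrays formed a group above the black ones, with a gap that was small beside the level itself.

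The 8 negative differences at 180 days were small and their groups overlapped. Mrps2 had a difference of -0.14 ± 0.20, Mrps5 of -0.09 ± 0.18 and Mrps31 of -0.09 ± 0.12. Mrps9 was at -0.04 ± 0.10, Mrpl48 at -0.05 ± 0.14 and Mrpl11 at -0.03 ± 0.16. Of these genes Mrps2 and Mrps5, counterparts of bacterial S2 and S5, had the widest spread, with 2.38, 2.94 and 3.67 units in LY and 3.76, 2.41 and 3.81 units in black mice for Mrps2. Without single arrays the differences of Mrps2, Mrps5 and Mrpl11 changed sign, up to 0.01, 0.11 and 0.09.

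**Figure D1:**
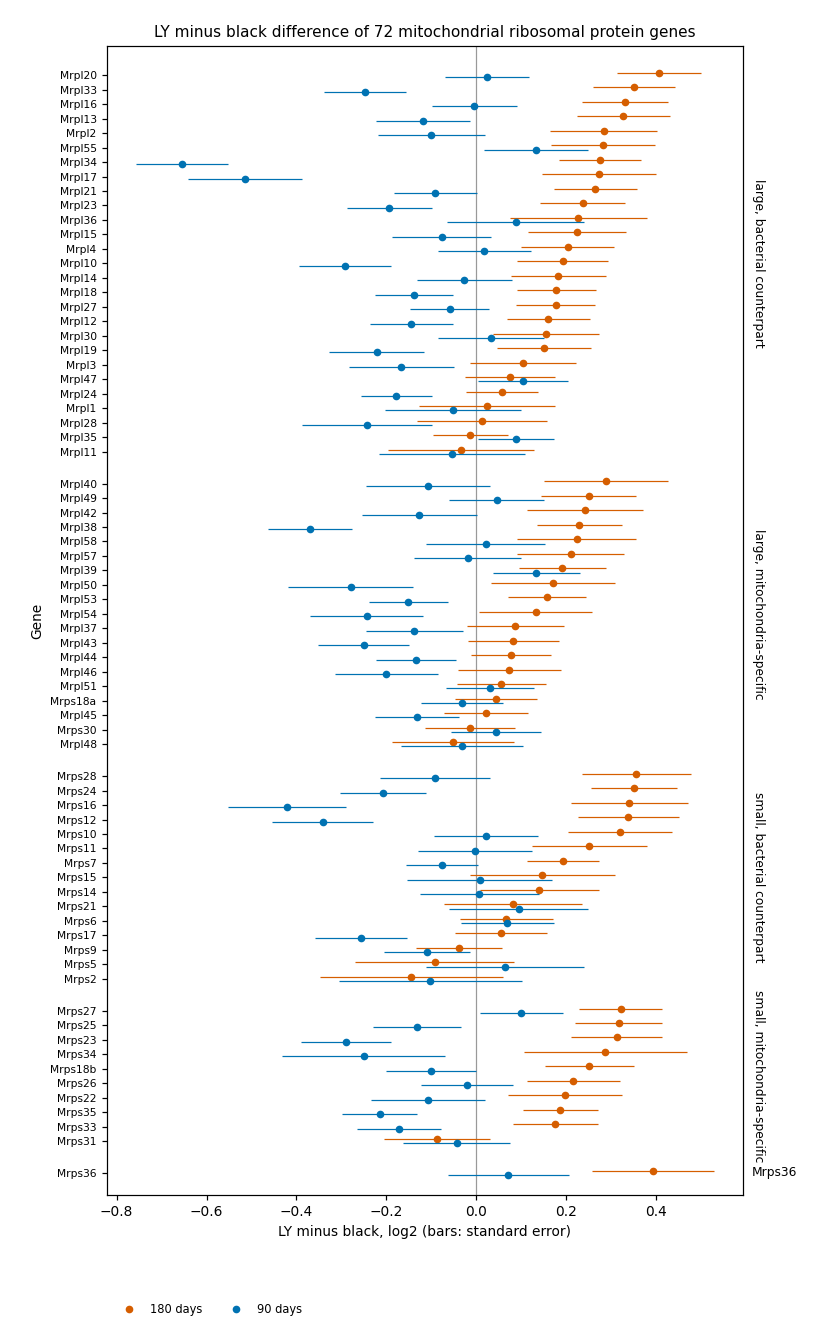
Log2 difference between LY and black mice for each of the 72 genes at 180 days (orange) and 90 days (blue), with standard errors from limma as bars, grouped by subunit and by whether a bacterial counterpart is known. At 180 days 64 of 72 points lie right of 0 and at 90 days 52 of 72 lie left of it, and no gene passed the adjusted threshold at either age.

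In 90-day ovaries the lean went the other way, again with no gene past the test. Differences were negative for 52 of the 72 genes (72.2%, against 50.9% of tested features and 65.8% of the brightest ones) and positive for 20, with a median of -0.10 against -0.004 over all features and -0.06 over the brightest ones. After adjustment 0 genes were called (against 0.0446% of all features), and the lowest adjusted p was 0.0709. At an unadjusted p under 0.05, 12 genes were lower (16.7%, against 8.06% of all and 13% of the brightest features) and 0 higher (against 5.21%). All LY arrays lay below all black arrays for 16 genes (22.2%, against 9.66% of all features) and above for 1, Mrpl47 (against 6.92%). Among the brightest features non-overlap was not counted. The size at this age depended on the scaling. With quantile normalization the median was -0.02 and 41 differences were negative, with cyclic loess likewise -0.02 and 41, so the 90-day median was close to 0 under both. At 180 days these settings gave medians of 0.10 and 0.14, both with 58 positive differences.

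Mrpl34, counterpart of a small basic bacterial protein, had the largest difference of the 72 at 90 days. It measured 4.79, 4.49 and 4.27 units in LY and 7.33 and 6.89 units in black mice, black replicate 2 having no value, which the fit leaves out. The log2 difference was -0.66 ± 0.10 (SE, n = 3 and 2, limma adjusted p = 0.0709), and the groups did not overlap. It passed the threshold with the floor at 0.2 units, with the filter at 1 unit and with an intensity trend in the variance, and ranged from 0.0201 to 0.449 in adjusted p over all alternatives. Mrpl17, near the exit of the peptide tunnel, measured 53.7, 44.8 and 44.5 units in LY and 82.5, 62.7 and 60.4 units in black mice (-0.51 ± 0.13). Mrpl38, a mitochondria-specific protein of the central protuberance, measured 4.77, 4.67 and 5.12 units in LY and 6.60, 6.03 and 6.19 units in black mice (-0.37 ± 0.09). Mrps16, counterpart of bacterial S16, measured 25.8, 27.7 and 24.6 units in LY and 35.9, 42.1 and 27.8 units in black mice (-0.42 ± 0.13). In each of these the LY arrays were the 3 lowest, and for Mrps16 the lowest black array lay just above the highest LY array. Mrps12, which lies in the decoding centre, measured 42.4, 38.8 and 46.6 units in LY and 59.4, 51.8 and 50.8 units in black mice (-0.34 ± 0.11), and Mrps23, a mitochondria-specific small subunit protein, 16.6, 16.6 and 19.7 units in LY and 22.0, 22.4 and 20.2 units in black mice (-0.29 ± 0.10). Both also lay lower in every LY mouse.

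Positive differences at 90 days were at most 0.13. Mrpl39 was at 0.13 ± 0.10, Mrpl55 at 0.13 ± 0.12, Mrps27 at 0.10 ± 0.09, Mrpl47 at 0.10 ± 0.10, Mrpl35 at 0.09 ± 0.08 and Mrps6 at 0.07 ± 0.10. Mrpl47, counterpart of bacterial L29, was the one gene without overlap in this direction, with 2.99, 2.96 and 3.02 units in LY and 2.71, 2.69 and 2.96 units in black mice. Its lowest LY value, 2.962 units, lay just above its highest black value, 2.959 units.

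The difference between the ages was tested directly as the genotype difference at 180 days minus that at 90 days, which uses the same arrays as both. It was positive for 63 of 72 genes (87.5%, against 54.1% of all features and 68.5% of the brightest ones), with a median of 0.27 against 0.03 over all features and 0.11 over the brightest ones. None was called, as was none of all features tested (0%), and 27 genes were positive at an unadjusted p under 0.05 (37.5%, against 8.01% of all and 15.4% of the brightest features), 0 negative (against 4.1%). The lowest adjusted p was that of Mrpl34, 0.0791, with a difference of 0.93 ± 0.14. With an intensity trend Mrpl34 and Mrpl33 passed, and with the filter at 1 unit Mrpl34 did. Next by p were Mrpl33 (0.60 ± 0.13), Mrpl38 (0.60 ± 0.13), Mrpl17 (0.79 ± 0.18), Mrps12 (0.68 ± 0.16) and Mrps23 (0.60 ± 0.14). With quantile normalization or cyclic loess the median was 0.15 under either. Of the 9 negative values the lowest were -0.16 for Mrps5 and -0.10 for Mrpl35, followed by -0.06 for Mrps30, -0.04 for Mrps31, -0.04 for Mrps2 and -0.03 for Mrpl47, and those of Mrpl48, Mrps21 and Mrps6 were closer to 0.

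For 9 genes (12.5%, against 1.83% of all features) every LY array lay above every black array at 180 days and below every black array at 90 days, and for 0 genes the reverse held (against 0.434%). These were Mrpl17, Mrpl23, Mrpl33, Mrpl34, Mrps12, Mrps16, Mrps23, Mrps24 and Mrps35. How many of the brightest features had this pattern was not counted. Of those features 15.4% were positive in the difference between the ages at an unadjusted p under 0.05, against 8.01% of all features. Mrpl34 measured 19.9, 20.9 and 20.6 units in LY and 15.9, 18.6 and 16.2 units in black mice at 180 days (0.28 ± 0.09), the reverse of its order at 90 days. Mrps12 measured 56.1, 59.6 and 54.4 units in LY and 48.0, 47.9 and 39.1 units in black mice at 180 days (0.34 ± 0.11), again the reverse. Its second feature did not reverse, at 0.19 ± 0.10 at 180 days and 0.06 ± 0.10 at 90 days. Mrpl33 measured 38.9, 41.8 and 40.9 units in LY and 52.3, 46.3 and 46.0 units in black mice at 90 days (-0.25 ± 0.09). In this gene the 2 LY groups were the highest and the lowest of the 4, with the black groups between. By group means the same held in others of the 9, among them Mrpl17, Mrpl23, Mrpl34, Mrps12, Mrps16, Mrps23 and Mrps24. Mrps16 at 180 days was at 44.3, 45.7 and 43.2 units in LY and 34.1, 35.8 and 35.4 units in black mice (0.34 ± 0.13) and Mrpl17 at 67.4, 71.3 and 70.8 units in LY and 60.4, 59.4 and 53.8 units in black mice (0.27 ± 0.13). Mrpl23, at the tunnel exit, was at 0.24 ± 0.09 at 180 days and -0.19 ± 0.09 at 90 days, and Mrps35, mitochondria-specific, at 0.19 ± 0.08 and -0.22 ± 0.08. Mrps23 was at 0.31 ± 0.10 at 180 days and Mrps24 at -0.21 ± 0.10 at 90 days.

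**Figure D2:**
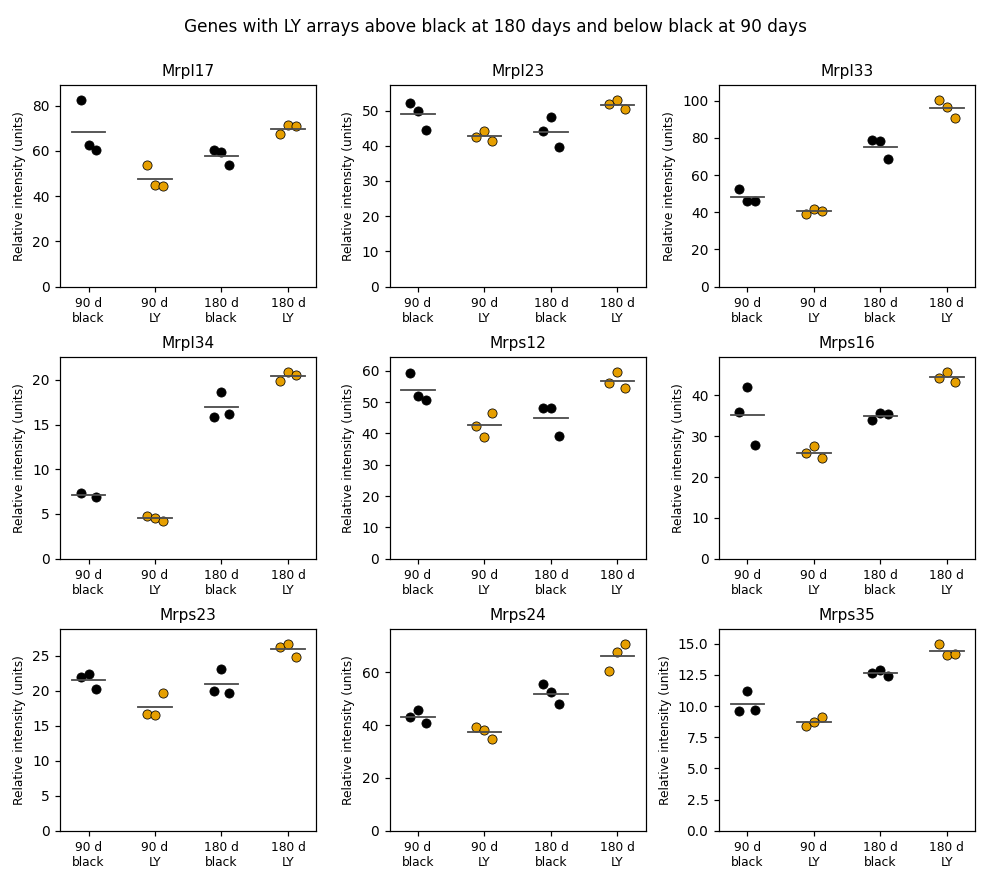
Relative intensity of 9 genes on each array, in units of the array median, by age and genotype (black points black mice, orange points LY mice, lines group means; Mrpl34 has 2 values in 90-day black mice). In every panel the 3 LY points lie above the black points at 180 days and below them at 90 days.

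Averaged over both ages the differences in these genes were small. Differences were positive for 46 genes (63.9%, against 52.8% of all features and 46.8% of the brightest ones) and negative for 26. The median was 0.04, against 0.01 over all features and -0.009 over the brightest ones. In limma 0 genes were called (against 0.00638% of features, lowest adjusted p 0.228). At an unadjusted p under 0.05, 6 genes were higher (8.33%, against 6.39% of all and 3% of the brightest features) and 1 lower (1.39%, against 6.6% and 6.07%). Mrpl20 (0.22 ± 0.07), Mrps27 (0.21 ± 0.07), Mrpl55 (0.21 ± 0.08), Mrps36 (0.23 ± 0.10), Mrpl16 (0.16 ± 0.07) and Mrpl39 (0.16 ± 0.07) were the first on the positive side. Mrpl34 (-0.19 ± 0.07), Mrps17 (-0.10 ± 0.07), Mrpl17 (-0.12 ± 0.09), Mrpl43 (-0.08 ± 0.07), Mrpl28 (-0.11 ± 0.10) and Mrps9 (-0.07 ± 0.07) were the first on the negative side. Mrps36, the dehydrogenase subunit, measured 39.5, 38.9 and 39.7 units in LY and 27.2, 33.2 and 29.7 units in black mice at 180 days (0.39 ± 0.14) and overlapped at 90 days (0.07 ± 0.14).

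The shift was visible on the arrays one by one. For each array the median over the 72 genes of the deviation from a gene's own mean over 12 arrays was taken. It was 0.25, 0.32 and 0.26 in 180-day LY mice and 0.08, 0.06 and 0.03 in 180-day black mice. It was -0.17, -0.32 and -0.24 in 90-day LY mice and -0.08, -0.01 and -0.21 in 90-day black mice. The genotypes were thus separated at 180 days, and at 90 days black replicate 3 lay lower than LY replicate 1. The spread between replicate arrays was 0.07 (SD), and the same median over all tested features stayed between -0.06 and 0.06. Cytosolic ribosomal protein genes had medians of 0.16 to 0.21 in 180-day LY and 0.04 to 0.15 in 180-day black mice, and respiratory chain subunit genes 0.19 to 0.21 and -0.04 to 0.07.

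**Figure D3:**
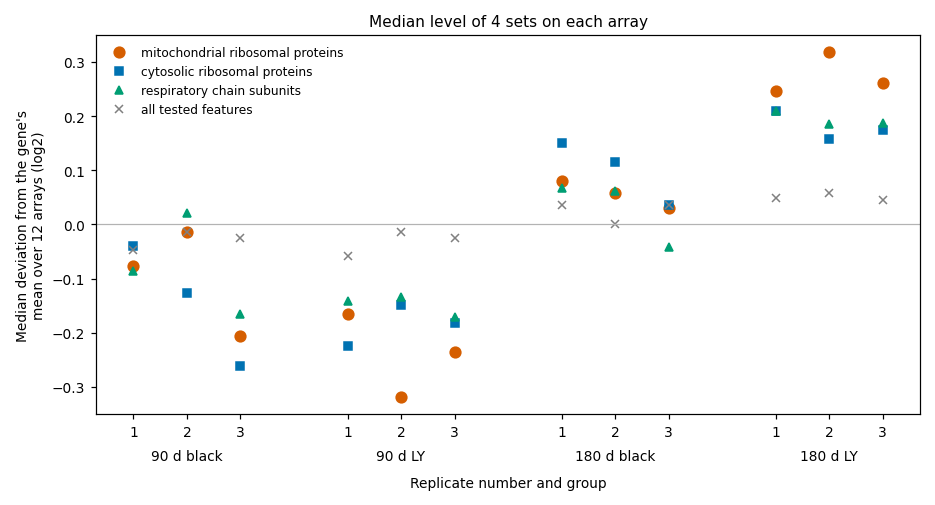
Median deviation of 4 gene sets on each of the 12 arrays, in log2 from each gene's mean over all arrays, by group and replicate number. The mitochondrial ribosomal proteins (orange circles) are highest on the 3 LY arrays at 180 days, at 0.25 to 0.32, and lowest on an LY array at 90 days, at -0.32, while all tested features (grey crosses) stay within 0.06 of 0.

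The 4 structural classes gave similar values. At 180 days the median difference was 0.19 for the 27 large subunit proteins with a bacterial counterpart (25 positive), 0.13 for the 19 mitochondria-specific ones (17 positive), 0.15 for the 15 small subunit proteins with a counterpart (12 positive) and 0.23 for the 10 mitochondria-specific ones (9 positive). At 90 days the medians were -0.09, -0.13, -0.08 and -0.12 in the same order. Over whole subunits the medians at 180 and 90 days were 0.18 and -0.10 for the large and 0.20 and -0.10 for the small subunit. No difference between classes was tested.

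Genes with known places in the ribosome did not pass the test at either age. Mrpl12, the stalk protein that recruits translation factors, measured 27.7, 31.2 and 31.1 units in LY and 24.7, 28.1 and 27.6 units in black mice at 180 days (0.16 ± 0.09) and 26.0, 27.1 and 24.5 units in LY and 27.3, 27.8 and 30.8 units in black mice at 90 days (-0.14 ± 0.09). The groups overlapped at 180 days by a single value and were separate at 90 days. Mrpl10, which anchors the stalk, was at 0.19 ± 0.10 and -0.29 ± 0.10 at the 2 ages, and Mrpl11 at its base at -0.03 ± 0.16 and -0.05 ± 0.16. Mrpl45, which holds the ribosome at the inner membrane, was at 0.02 ± 0.09 and -0.13 ± 0.09. Of the genes linked to ovarian insufficiency in women, Mrps22 measured 28.1, 26.4 and 23.2 units in LY and 21.9, 23.2 and 22.3 units in black mice at 180 days (0.20 ± 0.13) and 16.8, 15.4 and 13.4 units in LY and 14.9, 19.4 and 15.1 units in black mice at 90 days (-0.11 ± 0.13). Its groups overlapped at both ages. Mrps7 measured 6.80, 6.73 and 7.08 units in LY and 5.99, 6.12 and 5.91 units in black mice at 180 days (0.19 ± 0.08), without overlap, and was at -0.08 ± 0.08 at 90 days. The other feature of Mrps7 was at 0.04 ± 0.13 at 180 days, with overlapping groups, and at 0.01 ± 0.13 at 90 days. Mrpl50 measured 34.3, 35.0 and 32.3 units in LY and 29.8, 28.4 and 32.1 units in black mice at 180 days (0.17 ± 0.14) and 44.6, 30.9 and 32.6 units in LY and 46.6, 45.3 and 38.0 units in black mice at 90 days (-0.28 ± 0.14), separate at 180 days and overlapping at 90 days.

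Between 90 and 180 days the mitochondrial ribosomal protein genes differed on the arrays in 55 of 72 cases. The 2 ages were run as separate sets of arrays, and a difference of age cannot be told apart from one of array set. In the comparison of 6 mice with 6, 42 genes were higher at 180 days and 13 lower at an adjusted p under 0.05, and 17 were not called. That is 76.4% called, against 59.3% of all features and 67.6% of the brightest ones, with 58.3% higher (against 33.8% and 40.8%) and 18.1% lower (against 25.4% and 26.8%). The median was 0.34 (0.06 over all features, 0.09 over the brightest ones) and the range -0.67 to 1.78. All 180-day arrays lay above all 90-day arrays for 32 genes (44.4%, against 20.7% of all features) and below for 8 (11.1%, against 16%). Non-overlap between ages was not counted among the brightest features. The split of calls rested on the scaling, with 31 higher and 23 lower under quantile normalization and 32 and 23 under cyclic loess, and medians of 0.12 and 0.08. The share of all features called was not computed under these scalings. Leukocyte marker sums were 29.7 to 55.6 units at 180 days and 18.8 to 32.0 at 90 days, and the erythroid marker Alas2 was at 2.00 to 4.01 and 1.21 to 1.59 units. In the other direction 5 of 7 granulosa markers fell and 1 rose (median -0.48), and 3 of 5 endothelial markers fell and 0 rose (median -0.39). The part of these markers in the age difference was not tested.

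Mrps6, counterpart of bacterial S6, had the largest age difference. It lay at 12.3, 12.7 and 11.3 units in black and 14.2, 12.8 and 11.1 units in LY mice at 180 days, and at 3.70, 3.44 and 3.38 and 3.87, 3.45 and 3.72 units at 90 days. The difference was 1.78 ± 0.07 (SE, limma adjusted p = 4.67e-08), a gap many times the spread within any group, and the genotypes overlapped at both ages. Mrpl34 spanned 15.9 to 20.9 units at 180 and 4.27 to 7.33 at 90 days (1.71 ± 0.07). Mrps21 spanned 15.2 to 19.5 units and 4.41 to 6.13 (1.72 ± 0.11). Mrpl46, a mitochondria-specific protein of the central protuberance, spanned 2.27 to 2.66 units and 0.618 to 0.904 (1.67 ± 0.08). For each of these genes the lowest 180-day array stood well clear of the highest 90-day array. Mrpl44, which carries a domain like that of ribonuclease III, spanned 7.38 to 8.21 units and 2.58 to 3.28 (1.38 ± 0.06). Mrpl19 spanned 6.69 to 8.18 units and 2.74 to 3.55 (1.29 ± 0.07). The called genes on this side reached down to Mrps33, at 0.17 ± 0.07.

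The 13 genes that fell from 90 to 180 days were Mrpl10, Mrpl11, Mrpl15, Mrpl28, Mrpl45, Mrpl47, Mrpl50, Mrpl51, Mrpl57, Mrps2, Mrps5, Mrps10 and Mrps14. Mrpl10 spanned 6.04 to 7.81 units at 180 days and 9.43 to 12.9 at 90 days (-0.67 ± 0.07, adjusted p = 1.71e-05), and Mrps10 1.78 to 2.47 units and 2.84 to 3.92 (-0.64 ± 0.08). The stalk base was thus lower on the 180-day arrays in Mrpl10 and in Mrpl11 (-0.60 ± 0.11), while the stalk protein Mrpl12 was at 0.06 ± 0.07 and not called. Mrpl57 was at -0.60 ± 0.08, Mrpl47 at -0.51 ± 0.07 and Mrpl51 at -0.37 ± 0.07. Mrpl45 was at -0.25 ± 0.07 and Mrpl50 at -0.30 ± 0.10. The other ovarian insufficiency genes were called in the opposite direction by their chosen features, Mrps22 at 0.61 ± 0.09 and Mrps7 at 0.59 ± 0.06. The other feature of Mrps7 was called lower at 180 days, at -0.66 ± 0.09. By class, 8 of 10 mitochondria-specific small subunit genes rose and 0 fell, against 9 and 4 of 15 with a bacterial counterpart, and in the large subunit 13 and 5 of 27 with a counterpart and 11 and 4 of 19 without. Of all features 33.8% were called higher and 25.4% lower, and of the brightest ones 40.8% and 26.8%. The difference between classes was not tested, and the counts by class were not taken under the other scalings.

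**Figure D4:**
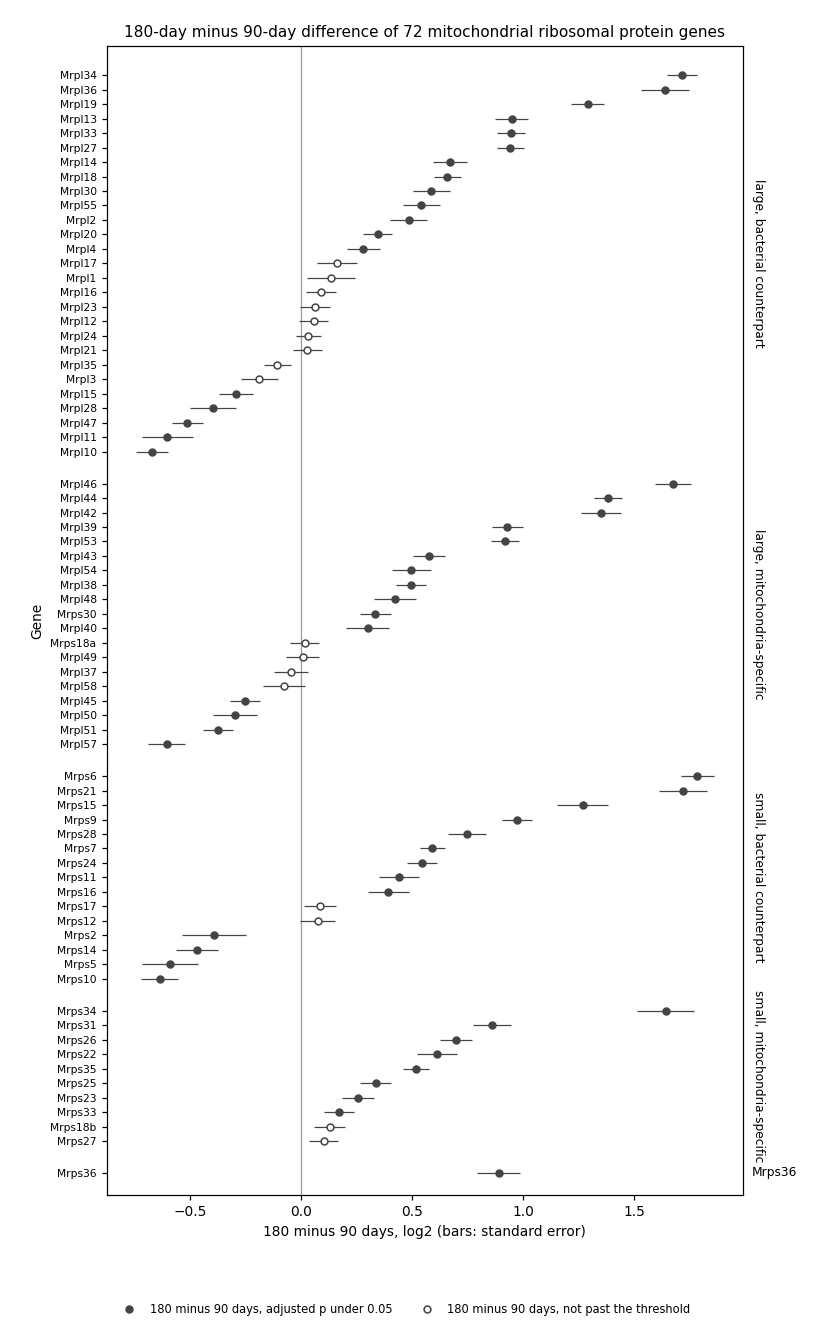
Log2 difference between 180-day and 90-day ovaries averaged over genotypes for each of the 72 genes, with standard errors from limma as bars, grouped by subunit class. Filled points passed the adjusted threshold of 0.05 (42 to the right of 0 and 13 to the left), open points did not, and the values run from -0.67 for Mrpl10 to 1.78 for Mrps6.

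The age values were read for the 3 neighbouring pairs already named, and the differences between neighbours were not tested. Mrpl46 and Mrps11, whose starts are 42 bases apart, were at 1.67 ± 0.08 and 0.44 ± 0.09. Mrpl47 fell (-0.51 ± 0.07) where its neighbour Ndufb5 rose (0.65 ± 0.09). Mrps12 was at 0.07 ± 0.08 and not called, and Sars2 fell (-0.44 ± 0.16, adjusted p = 0.0376). The genes with the ETS letters had median genotype differences of 0.21 at 180 days and -0.11 at 90 days (23 genes), against 0.16 and -0.05 for the 40 without. The 5 genes with the NRF1 letters were at 0.25 and -0.25, against 0.17 and -0.07 for the other 58. For the YY1 letters the 90-day order was the other way. The 11 genes with them were at 0.24 and -0.03, against 0.17 and -0.10 for the other 52. These are descriptions of few genes and were not tested.

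Of the 72 genes, 11 had 13 further features, and 11 of these were bright enough to be tested. Their signs matched the chosen feature for 8 of 11 at 180 days, 5 of 11 at 90 days and 8 of 11 in the age comparison. The second feature of Mrps12 had an intensity of 28.2 to 29.2 units in LY and 22.9 to 28.1 units in black mice at 180 days, and differences of 0.19 ± 0.10 at 180 days and 0.06 ± 0.10 at 90 days, so the 90-day difference of Mrps12 rests on 1 feature. The second tested feature of Mrpl17, at 0.216 to 0.396 units, was at 0.12 ± 0.20 and 0.06 ± 0.20. In the age comparison the features of Mrps7 disagreed, the chosen one at 0.59 ± 0.06 and the other at -0.66 ± 0.09, both called. Those of Mrps33 were at 0.17 ± 0.07 and -0.28 ± 0.12, the latter not called. Mrpl21 was at 0.03 ± 0.07 by its chosen feature and at 1.44 ± 0.09 and 0.23 ± 0.09 by its others, both called. The gene-wise age differences thus vary with the feature read. Pseudogenes named after Mrpl23, Mrpl27, Mrpl48 and Mrps36 exist in the annotation, and whether their transcripts add to the signal was not tested.

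Other genes of mitochondrial translation had genotype medians between -0.10 and 0.27. Of the mitochondrial ribosomal proteins that carry other names, Dap3, Gadd45gip1, Chchd1 and Ptcd3 were measured, with a median of 0.27 at 180 days (3 of 4 positive) and -0.10 at 90 days. Gadd45gip1 was at 0.36 ± 0.13 at 180 days and Chchd1 at 0.30 ± 0.10. The 15 translation factors had medians of 0.00 and -0.06, with 9 positive and 13 negative at the 2 ages, Tufm, the elongation factor, at 0.20 ± 0.11 and -0.22 ± 0.11. The 23 assembly factors were at 0.06 and -0.06. Among them Mpv17l2, an inner membrane protein needed for assembly, was at 0.64 ± 0.13 at 180 days (adjusted p = 0.128) and Rbfa at 0.24 ± 0.10 and -0.31 ± 0.10. The 16 mitochondrial aminoacyl-tRNA synthetases were at 0.08 and -0.08, with Cars2 at -0.50 ± 0.10 at 90 days (adjusted p = 0.091). The 10 nuclear regulators were at 0.02 and -0.08, Gabpa at 0.19 ± 0.14 and -0.22 ± 0.14, Myc at 0.25 ± 0.15 and -0.51 ± 0.15 and Yy1 at -0.24 ± 0.13 at 180 days. The 4 genes of mitochondrial transcription were at 0.01 and 0.03, and Tfam at 0.01 ± 0.16 and -0.20 ± 0.16. Differences of the 4 ran from -0.08 to 0.10 at 180 days and from -0.20 to 1.53 at 90 days. At 90 days 1 was higher at an unadjusted limma p under 0.05 (against 5.21% of all features) and 0 lower (against 8.06%). In these lists 0 genes were called in a genotype comparison.

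In the age comparison the neighbouring lists were mixed. Among all features 33.8% were called higher and 25.4% lower in this comparison, and the lists were not tested against these shares. Of the 15 translation factors 6 rose and 5 fell, with Mtfmt at 0.67 ± 0.07 and Lrpprc, which stabilises mitochondrial messages, at -0.99 ± 0.10. Of the 23 assembly factors 5 rose and 7 fell, and of the 16 synthetases 6 and 5. Gabpa, a subunit of the ETS factor GABP, rose by 1.03 ± 0.10 and Myc fell (-1.04 ± 0.11). Of the 4 genes of mitochondrial transcription 2 rose and 1 fell, Tefm, an elongation factor, being at 2.02 ± 0.45 and Tfb2m, an initiation factor, at -1.73 ± 0.06.

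Respiratory chain subunit genes, whose products are assembled with those made by the mitochondrial ribosome, had genotype medians close to those of the mitochondrial ribosomal proteins. For 82 tested of 84 measured, the median difference was 0.20 at 180 days (76 positive, 6 negative) and -0.10 at 90 days (15 and 67), and the difference between the ages 0.28. The 51 cytosolic ribosomal protein genes were at 0.13 (42 and 9), -0.03 (18 and 33) and 0.15. In both sets 0 genes were called in these comparisons, the lowest adjusted p being 0.083 for Atp5g1 at 180 days (0.55 ± 0.09). In the age comparison 43 of the 82 respiratory chain genes rose and 9 fell with a median of 0.20. Of the 51 cytosolic ribosomal protein genes 30 rose and 3 fell with a median of 0.27. Over all features 33.8% were called higher and 25.4% lower, with a median of 0.06. The mitochondrial ribosomal proteins, at 0.19, -0.10, 0.27 and 0.34, thus lay beside the respiratory chain in the genotype comparisons, and whether the sets differ was not tested.

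**Figure D5:**
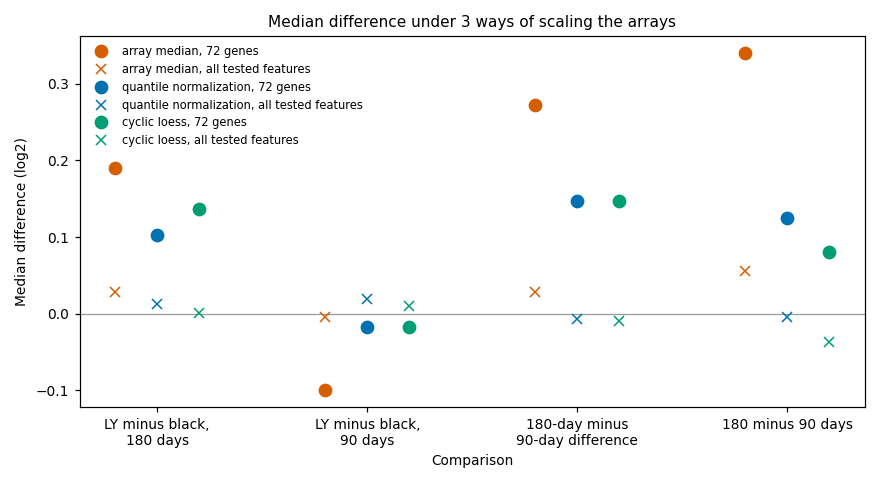
Median log2 difference of the 72 genes (circles) and of all tested features (crosses) in 4 comparisons under 3 ways of scaling the arrays. Circles lie above crosses at 180 days and below them at 90 days under all 3, and the circle at 90 days goes from -0.10 to -0.02 and that for age from 0.34 to 0.12 and 0.08 under quantile normalization and cyclic loess.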

How the data were processed

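Total ovarian RNA of 12 mice was copied into biotinylated cRNA, hybridised to 1 one-colour array per mouse and stained with a fluorescent dye. The authors scanned the slides with GenePix, applied the CodeLink background correction and scaled each slide with GeneSpring. The deposited values are relative intensity on a linear scale with an array median of 1.00 at 180 days and 1.04 at 90 days, 166 to 503 missing and 67 to 144 negative values per array. They are not centred gene by gene.

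Here every value was expressed relative to the median of its array and converted to log2, with 0.01 units as the lowest value allowed. Of the 36227 features, 21615 have 1 gene name in the platform annotation, 681 several and 13931 none. Names were set against GRCm38.p6, which changed 0. Features whose mean reached 0.2 units in some group (31359) were fitted in limma 3.58.1 (R 4.3.3) with 4 group means, and 245 features without a value in a whole group were left out. Adjusted p-values are Benjamini-Hochberg over all features tested, the threshold is 0.05, and ± is the standard error. The 5 comparisons were LY minus black at each age, their mean, their difference, and 180 minus 90 days. Arrays correlated at 0.970 to 0.987 within a group, 0.962 to 0.984 between genotypes and 0.918 to 0.938 between ages. The number of arrays limits the precision, since 3 mice against 3 cannot reach an exact two-sided p under 0.1, so no such test is given.

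The genes and lists were chosen with earlier results of these data known. Named were, per comparison, up to 6 genes on each side by p, genes whose further features oppose a called one, genes chosen for their role, up to 3 genes of each other list by p, agouti and Raly. Other genes named as exceptions, neighbours or counts were chosen after their values were seen. The script was tested on simulated data. Alternatives covered normalization, floor, pseudocount, filter, variance model, array weights, 1 age alone, the methods' t-test, a replicate block, the mean of a gene's features and each array left out. Cyclic loess was added after seeing the data.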

Additional observations from a re-analysis of the deposited data

Results flagged for a closer look

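In 9 genes the genotype difference had opposite signs at the 2 ages without overlap of any LY and black array, LY being higher at 180 days and lower at 90 days. The difference between the ages (log2, 180 days minus 90 days) was 0.79 for Mrpl17, 0.43 for Mrpl23, 0.60 for Mrpl33, 0.93 for Mrpl34, 0.68 for Mrps12, 0.76 for Mrps16, 0.60 for Mrps23, 0.56 for Mrps24 and 0.40 for Mrps35. It was tested in limma, and none of the 9 passed the adjusted threshold, the lowest adjusted p being 0.0791 for Mrpl34. The second feature of Mrps12 did not reverse, its difference between the ages being 0.13 ± 0.14. Nor did the second tested feature of Mrpl17, at 0.06 ± 0.28. Of all features, 1.83% had this pattern, and the share of the brightest features with it was not counted. Groups of 3 arrays are too small for a test of single outlying arrays.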

How the results depend on the processing

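The median differences kept their sign under every alternative run. With quantile normalization the median was 0.103 at 180 days, -0.018 at 90 days, 0.147 for the difference between ages and 0.125 (40 positive and 32 negative) for 180 minus 90 days. With cyclic loess it was -0.0175 at 90 days, 0.147 for the difference between ages and 0.0804 for 180 minus 90 days. The age median was also 0.285 with the deposited values as they stand and 0.408 with the mean of a gene's features. The cause of these shifts was not tested. At 90 days 1 gene, Mrpl34, passed with a floor of 0.2 units, a filter at 1 unit or an intensity trend in the variance. For the difference between ages 1 gene (Mrpl34) passed with the filter at 1 unit and 2 (Mrpl34 and Mrpl33) with the trend. The number of genes called between ages stayed between 52 and 57, and the matching share of all features was computed only for the main setting. Leaving out single arrays gave medians of 0.162 to 0.198 at 180 days, -0.140 to -0.0768 at 90 days, 0.0250 to 0.0559 over both ages, 0.243 to 0.305 for the difference between ages and 0.320 to 0.368 for age. Single genes near 0 changed sign when 1 array was left out. At 180 days Mrps2 ranged from -0.360 to 0.0111, Mrps5 from -0.285 to 0.106 and Mrpl11 from -0.176 to 0.0854. In the difference between ages Mrps5 ranged from -0.350 to 0.0415, Mrps30 from -0.117 to 0.0179, Mrps31 from -0.170 to 0.0858, Mrpl47 from -0.0976 to 0.0766 and Mrps2 from -0.258 to 0.113, and Mrps30 was at 0.0662 with the mean of its features. By the methods' t-test, 34 genes were higher (47.2%, against 9.09% of all features) and 0 lower (against 4.31%) at 180 days and 0 higher (against 3.28%) and 10 lower (13.9%, against 5.64%) at 90 days before adjustment, and 0 after Benjamini-Hochberg. Replicate numbers are shared by the groups, but same-numbered arrays did not deviate together (correlations of -0.0939 to 0.148), so they do not pair the samples. With the replicate number as a block the counts called were 0 in each genotype comparison and 55 for age, as without it.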
